A study of Homo sapiens with 6 samples.

Results

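Aminoacyl-tRNA synthetases are the enzymes that join each amino acid to its transfer RNA, and 33 of their genes were read here among 11584 genes in all. They were taken by gene symbol and annotated name, with no measured value used, from probe sets that carry 1 gene symbol. Of 40 genes listed, 33 could be used: 16 for cytosolic enzymes, 2 (GARS1 and KARS1) that serve both compartments from 1 gene, and 15 for mitochondrial enzymes. The other 7 were not analysed here, among them MARS1, QARS1 and TARS2, whose probe sets carry several symbols. Both alanyl-tRNA synthetase genes, AARS1 and AARS2, were among the genes read. Each gene was read by a single probe set, and 10 of them (CARS1, EPRS1, FARSA, FARSB, GARS1, IARS1, LARS1, RARS2, TARS3 and VARS1) by one of a type that can also pick up related transcripts.

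Charging a tRNA is the step at which the genetic code is read into protein, because the ribosome does not check which amino acid a tRNA carries. Cytosol and mitochondria translate separately, so most amino acids have a cytosolic enzyme and a mitochondrial one, both encoded in the nucleus. The enzymes fall into class I and class II by the fold of their catalytic domain, and several cytosolic ones sit in a multi-synthetase complex held together by scaffold proteins. When amino acids run short or the endoplasmic reticulum is stressed, the transcription factor ATF4 switches on amino acid transporters, biosynthetic enzymes and many cytosolic synthetases. ATF4 works with C/EBP proteins at composite elements called amino acid response elements.

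The RNA came from HEK293 cells, a human embryonic kidney line, of the T-REx Flp-In type, which in all 3 groups carried a doxycycline-inducible LIN28B transgene with a FLAG/HA tag. LIN28B, which binds RNA, keeps let-7 microRNAs from maturing and also attaches to many mRNAs. Total RNA was measured on 6 Affymetrix arrays, 2 in each group: mock-transfected cells without induction, mock-transfected cells with the transgene induced, and cells without induction transfected with siRNA against LIN28B. The transgene was switched on with 250 ng/ml doxycycline, added 15 to 20 h ahead of crosslinking in the protocol, which gives no time for the cells put on the arrays. A non-targeting siRNA is in none of the groups, so siRNA transfection and loss of LIN28B cannot be told apart. Nothing in the labels makes the numbered replicates separate cultures, so the p-values cover the spread among these arrays alone, and that spread may be technical. In bulk RNA, fewer cells of a type and less RNA per cell cannot be told apart.

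Array medians lay between 7.126 and 7.177 on the log2 scale, and the 6 arrays limit the precision of every value. LIN28B itself read 10.02 and 9.85 on the mock arrays without induction, 10.15 and 10.11 with induction, and 7.51 and 7.53 after siRNA, which is 18.7% of the mock level without induction. Of 10 genes described in HEK293 cells, 7 were analysed here (NEFL, INA, EYA1, EPCAM, KRT8, KRT18 and CDH2). EPCAM, INA and KRT8 were higher and NEFL lower after siRNA, and their part in the results below was not tested. Of 16 markers of fibroblasts, blood cells and hepatocytes, 4 were analysed here (COL1A1, CD79A, HBB and TTR), with median log2 values per cell type between 5.03 and 6.11 in mock cells without induction, and none of the 4 passed the test.

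The start sites of the synthetase genes are shown first, because the ATF4 pathway acts there. RefSeq (GRCh38.p14) promoter windows, 250 bases before to 50 bases after a start, were at hand for 27 of the 33 genes; AARS2, LARS1, TARS3, VARS1, VARS2 and YARS1 had none. The core of the amino acid response element, TGATGNAA with N for any base, was searched on both strands. It was found in 7 of the 27 genes (25.9%) and in 4.46% of all 27305 genes with a window (3.62% of 35116 windows). In 5 of the 7 the match was TGATGCAA or its complement TTGCATCA, which 1.08% of all genes hold. Stretches of 30 bases around each match follow, on the gene's strand, with the match in capitals.
AARS1 (cytosolic alanine enzyme), chr16:70289675-70289704, minus strand: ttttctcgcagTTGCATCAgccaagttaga
CARS1 (cytosolic cysteine enzyme), chr11:3057407-3057436, minus strand: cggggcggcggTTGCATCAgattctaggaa
GARS1 (glycine enzyme of both compartments), chr7:30594834-30594863, plus strand: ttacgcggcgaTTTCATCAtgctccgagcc
IARS1 (cytosolic isoleucine enzyme), chr9:92293692-92293721, minus strand: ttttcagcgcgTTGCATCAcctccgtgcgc
NARS1 (cytosolic asparagine enzyme), chr18:57621804-57621833, minus strand: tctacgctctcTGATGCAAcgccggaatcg
TARS1 (cytosolic threonine enzyme), chr5:33440956-33440985, plus strand: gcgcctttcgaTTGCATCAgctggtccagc
YARS2 (mitochondrial tyrosine enzyme), chr12:32756076-32756105, minus strand: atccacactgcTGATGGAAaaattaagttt

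In CARS1 the match began 2 bases upstream of the start and ran across it, and in IARS1 and GARS1 it began 13 and 33 bases upstream. In NARS1 and TARS1 it began 15 and 3 bases after the start, and in AARS1 and YARS2 it began 187 and 197 bases upstream. The E-box CACGTG was present in 4 of 27 genes (14.8%; 8.77% of all genes), the CCAAT box in 14 (51.9%; 39.7%) and the palindromic NRF1 core in 1 (3.7%; 1.52%). E-boxes are bound by MYC and related factors, and NRF1 drives many nuclear genes for mitochondrial proteins. The E-box genes were IARS1 and the mitochondrial enzymes CARS2, EARS2 and MARS2, and the NRF1 gene was MARS2. No match of one motif overlapped a match of another in these windows. The 4 E-box stretches follow in the same form.
CARS2 (mitochondrial cysteine enzyme), chr13:110706501-110706530, minus strand: tgctgggatgcaCACGTGcttcgctaacag
EARS2 (mitochondrial glutamate enzyme), chr16:23557348-23557377, minus strand: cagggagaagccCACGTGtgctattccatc
IARS1, chr9:92293866-92293895, minus strand: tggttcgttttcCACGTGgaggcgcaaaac
MARS2 (mitochondrial methionine enzyme), chr2:197705346-197705375, plus strand: atgcgcctctcaCACGTGctgtcagaacgc

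A match is a description of letters in a window and not of a bound site.

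The study asked which transcripts change when LIN28B is depleted. After LIN28B siRNA, 6 of the 33 synthetase genes fell: both isoleucine enzymes (IARS1 and IARS2), the mitochondrial enzymes for asparagine (NARS2) and glutamate (EARS2), the beta subunit of the cytosolic phenylalanine enzyme (FARSB), and GARS1. None rose, by limma's test at an adjusted p under 0.05. Limma's unadjusted p was under 0.05 for 10 of the 33 genes, 0 of them with a fold change above 0. The share of all genes at that unadjusted threshold was not counted, but it is at least the 28.0% that passed the adjusted one. The 10 are therefore not read as a trait of the synthetase genes. Changes were small to moderate, from -0.82 to -0.37 on the log2 scale among the 6, and from -0.29 to 0.21 among the 27 that did not pass. In the same comparison 28.0% of all genes were called, 14.5% lower and 13.5% higher, against 18.2% of the synthetase genes. The share of synthetase genes that fell thus lay near that of all genes, and a smaller share of them changed in either direction. Falls of at least 0.5 were read in 5 of the 33, and in 8.24% of all genes.

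**Figure D1:**
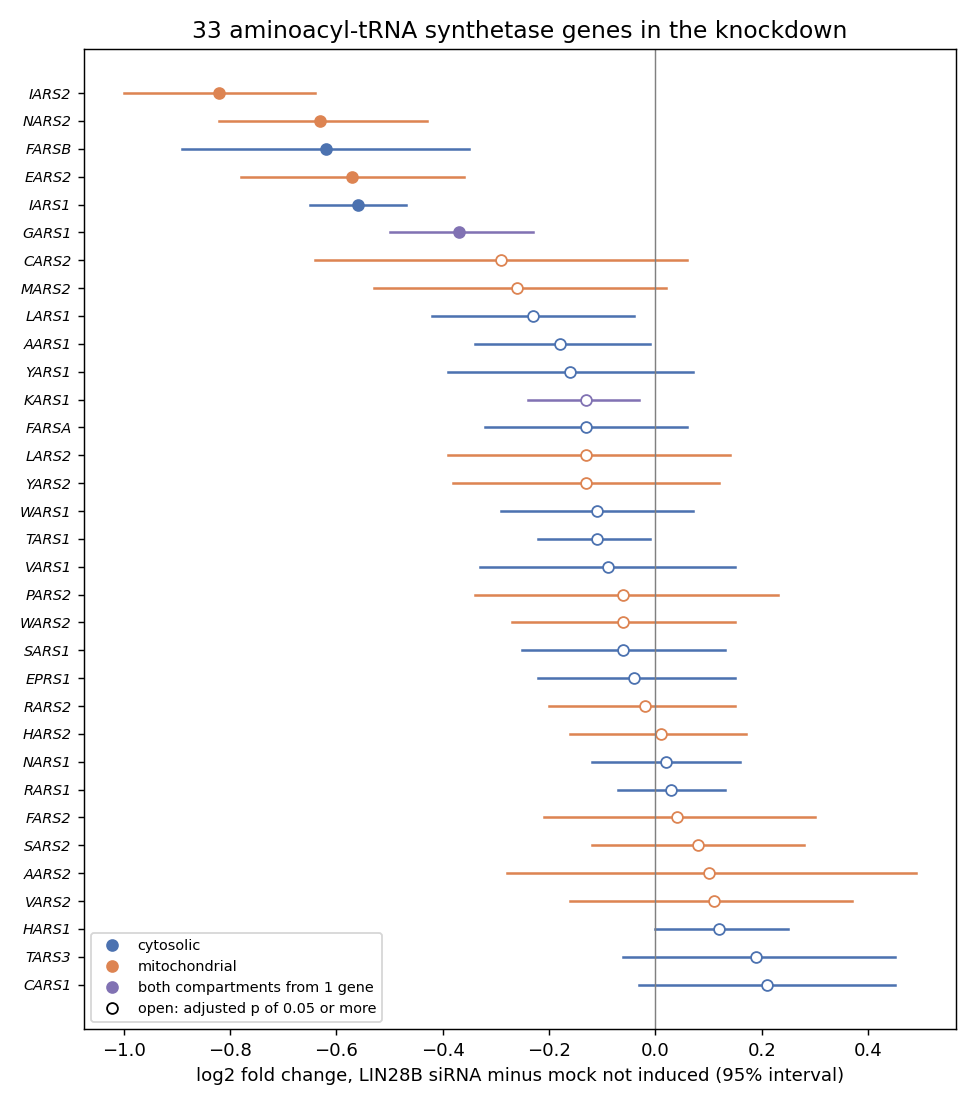
Log2 fold change (horizontal axis, LIN28B siRNA minus mock without induction) of each of the 33 synthetase genes, with dots for the estimates, lines for their 95% intervals and colours for the compartment of the enzyme. The 6 filled dots, at an adjusted p under 0.05, all lie on the left between -0.82 (IARS2) and -0.37 (GARS1), and the open dots run from -0.29 (CARS2) to 0.21 (CARS1).

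As a list, the 33 genes had a median log2 fold change of -0.11, and all genes one of 0.01. Below 0 were 23 of the 33 (69.7%), against 49.2% of all genes. The median absolute log2 fold change was 0.13 for the synthetase genes and 0.21 for all genes. Both knockdown arrays lay below all 4 mock arrays for 12 synthetase genes, where 26.0% of all genes did so: the 6 that fell and CARS2, MARS2, LARS1, AARS1, KARS1 and YARS1. Both lay above all 4 for 3 (SARS2, HARS1 and TARS3), where 27.1% of all genes did so.

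The mitochondrial isoleucyl-tRNA synthetase gene IARS2 had the largest change. Its log2 values were 11.08 and 10.92 on the mock arrays without induction, 11.12 and 10.97 with induction, and 10.09 and 10.27 after siRNA. Both knockdown arrays were lower than every mock array, and the mock arrays with and without induction overlapped. The log2 fold change was -0.82 (SE 0.081, 95% interval -1.0 to -0.64, adjusted p = 0.000145), or 56.6% of the mock level.

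The cytosolic isoleucyl-tRNA synthetase IARS1, a member of the multi-synthetase complex, fell as well. Its log2 values were 11.93 and 11.94 without induction, 12.00 and 11.96 with induction, and 11.38 on both knockdown arrays. The arrays of each group lay close together, and the knockdown arrays stood below all others. The log2 fold change was -0.56 (SE 0.04, adjusted p = 3.9e-05), or 68.0% of the mock level. IARS1 had the smallest standard error of the 33 genes. It is the gene whose window holds both an amino acid response core and an E-box.

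NARS2, which charges mitochondrial tRNA with asparagine, read 9.56 and 9.43 without induction, 9.58 and 9.43 with induction, and 8.78 and 8.95 after siRNA on the log2 scale. Its knockdown arrays were below all mock arrays, with a log2 fold change of -0.63 (SE 0.088, adjusted p = 0.000896) and 64.8% of the mock level. EARS2, the mitochondrial glutamyl-tRNA synthetase, read 7.94 and 7.89, then 7.81 and 7.71 with induction, and 7.34 and 7.35 after siRNA. Both knockdown arrays again stood below every mock array, and the induced arrays lay between the other groups. The log2 fold change against cells without induction was -0.57 (SE 0.094, adjusted p = 0.00197), or 67.4% of the mock level.

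FARSB encodes the beta subunit of the cytosolic phenylalanyl-tRNA synthetase, whose alpha subunit comes from FARSA. The FARSB log2 values were 8.16 and 7.87 without induction, 8.12 and 8.03 with induction, and 7.30 and 7.48 after siRNA. The replicates without induction lay further apart than those of the other genes that fell, but the knockdown arrays did not overlap any mock array. The log2 fold change was -0.62 (SE 0.12, 95% interval -0.89 to -0.35, adjusted p = 0.00424), or 65.0% of the mock level. FARSA read 8.55 and 8.63 without induction and 8.43 and 8.5 after siRNA, a log2 fold change of -0.13 (95% interval -0.32 to 0.06, adjusted p = 0.284) that did not pass. The intervals of the subunits did not overlap, and the difference between them was not tested.

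GARS1, the glycyl-tRNA synthetase of cytosol and mitochondria, read 11.11 and 11.0 without induction, 11.08 and 11.07 with induction, and 10.74 and 10.63 after siRNA on the log2 scale. The knockdown arrays were below all mock arrays by a margin larger than the spread within any group. The log2 fold change was -0.37 (SE 0.059, adjusted p = 0.00176), or 77.5% of the mock level. Over 15 alternative settings of the analysis the 6 genes were called each time. Of these, 1 (no filter) could not move any value. The fold of these genes also could not move with the stricter filter, averaged probe sets, the 4 compared arrays alone, no intensity trend or the replicate block. Leaving out an induced array could not move it either. The settings that leave out an array brought the largest adjusted p, 0.0498, for FARSB without siRNA replicate 1.

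The next largest changes, in 2 mitochondrial enzymes, did not pass. CARS2, the mitochondrial cysteinyl-tRNA synthetase, read 5.31 and 5.35 without induction, 5.45 and 5.44 with induction, and 4.98 and 5.10 after siRNA, low values at which background correction weighs most. Its log2 fold change was -0.29 (95% interval -0.64 to 0.06, adjusted p = 0.204). MARS2, the mitochondrial methionyl-tRNA synthetase, read 7.12 and 7.02, 7.24 and 6.97, and 6.84 and 6.78 in the same order, with a log2 fold change of -0.26 (95% interval -0.53 to 0.02, adjusted p = 0.15). For both genes the knockdown arrays were below all mock arrays, yet the interval held 0.

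**Figure D2:**
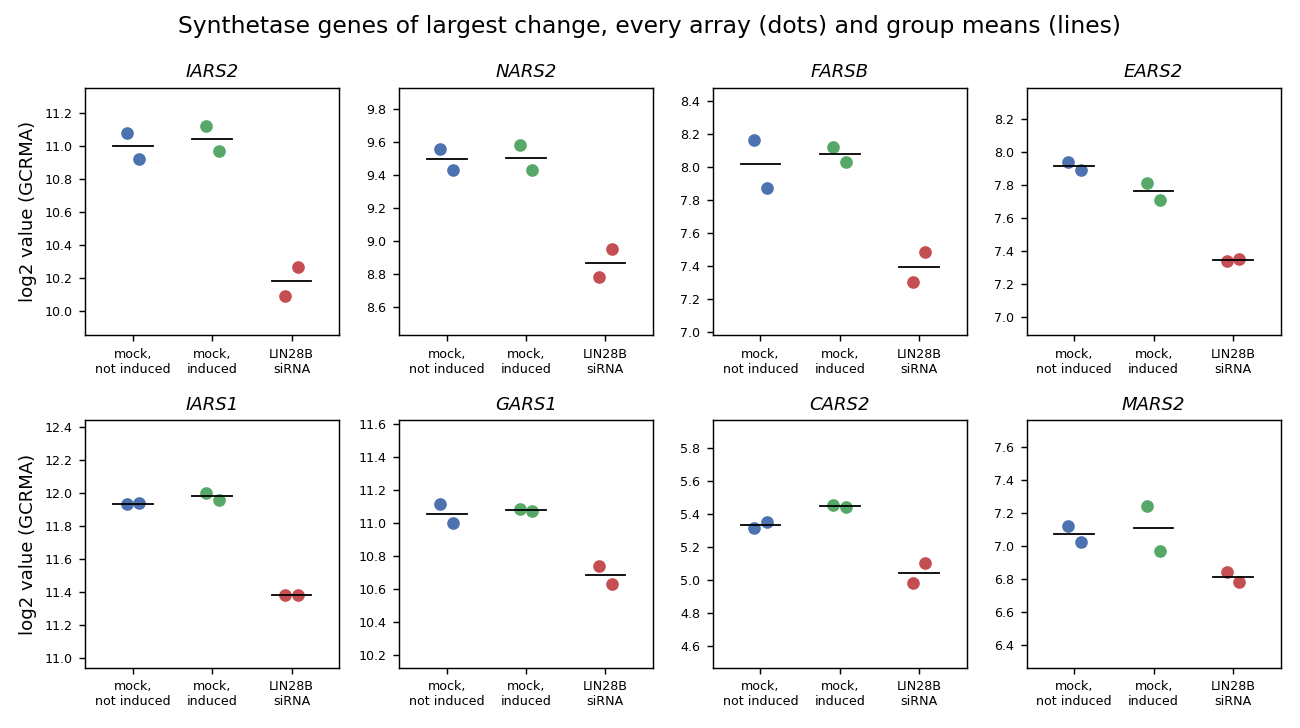
Log2 values (vertical axis, GCRMA scale, 1 panel per gene with its own range) on every array for the 8 synthetase genes of largest change, grouped as mock without induction, mock with induction and LIN28B siRNA. Dots are arrays and lines are means of 2 arrays. In all 8 panels both knockdown dots lie below the 4 mock dots, with IARS2 dropping from 11.08 and 10.92 to 10.09 and 10.27.

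Among the 16 cytosolic enzymes, IARS1 and FARSB fell, 0 rose and 14 did not pass, with a median log2 fold change of -0.10. The 12.5% called lower lay near the 14.5% of all genes called lower, and 13.5% of all genes were higher. The leucine enzyme LARS1 read 10.06 and 9.80 without induction, 10.14 and 10.08 with induction, and 9.71 and 9.69 after siRNA, with a log2 fold change of -0.23 (adjusted p = 0.0669). It passed at -0.36 (adjusted p = 0.00472) without replicate 2 of the mock cells without induction, and stood at -0.10 (0.292) without replicate 1 of them. The alanine enzyme AARS1 read 9.34 and 9.49, 9.45 and 9.49, and 9.24 on both knockdown arrays, a difference of -0.18 (adjusted p = 0.103). It passed at -0.25 (adjusted p = 0.0283) without replicate 1 of the mock cells without induction, and stood at -0.10 (0.33) without replicate 2 of them. Leaving out replicate 1 of these mock cells also brought the tyrosine enzyme YARS1 to -0.29 (adjusted p = 0.0399), from -0.16 (adjusted p = 0.276). Without the other mock array of that group, YARS1 stood at -0.03 (0.869). The call of these 3 genes differed with the mock array left out.

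The other cytosolic enzymes stayed near the mock level. TARS1 (threonine) had a log2 fold change of -0.11 (95% interval -0.22 to -0.01, adjusted p = 0.11), WARS1 (tryptophan) of -0.11, VARS1 (valine) of -0.09 and SARS1 (serine) of -0.06. The fused glutamate and proline enzyme EPRS1 differed by -0.04 (95% interval -0.22 to 0.15), NARS1 (asparagine) by 0.02 (95% interval -0.12 to 0.16) and RARS1 (arginine) by 0.03. Above 0 were HARS1 (histidine) at 0.12 (adjusted p = 0.134), TARS3, a paralog of TARS1, at 0.19 (0.244) and CARS1 (cysteine) at 0.21 (0.176), none of which passed. For TARS3 the knockdown arrays read 6.86 and 6.88 and the mock arrays between 6.64 and 6.76, with no overlap. KARS1, the lysine enzyme of both compartments, read 11.83 and 11.72 without induction and 11.63 and 11.66 after siRNA, which makes -0.13 on the log2 scale (adjusted p = 0.0616). It passed at -0.19 (adjusted p = 0.0192) without replicate 2 of the mock cells without induction, and stood at -0.08 (0.258) without replicate 1 of them.

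Among the 15 mitochondrial enzymes, IARS2, NARS2 and EARS2 fell, 0 rose and 12 did not pass, with a median log2 fold change of -0.06. Called lower were thus 20.0% of them, where 14.5% of all genes were lower and 13.5% higher. After CARS2 and MARS2, the lowest were LARS2 (leucine) and YARS2 (tyrosine), at -0.13 each (adjusted p = 0.46 and 0.425). WARS2 (tryptophan) and PARS2 (proline) stood at -0.06, RARS2 (arginine) at -0.02 and HARS2 (histidine) at 0.01. FARS2 (phenylalanine) stood at 0.04, SARS2 (serine) at 0.08, AARS2 (alanine) at 0.10 and VARS2 (valine) at 0.11. AARS2 was the least certain of the 33, because its mock arrays without induction read 6.83 and 7.41 and the knockdown arrays 7.27 and 7.19, inside that range. Its 95% interval ran from -0.28 to 0.49.

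**Figure D3:**
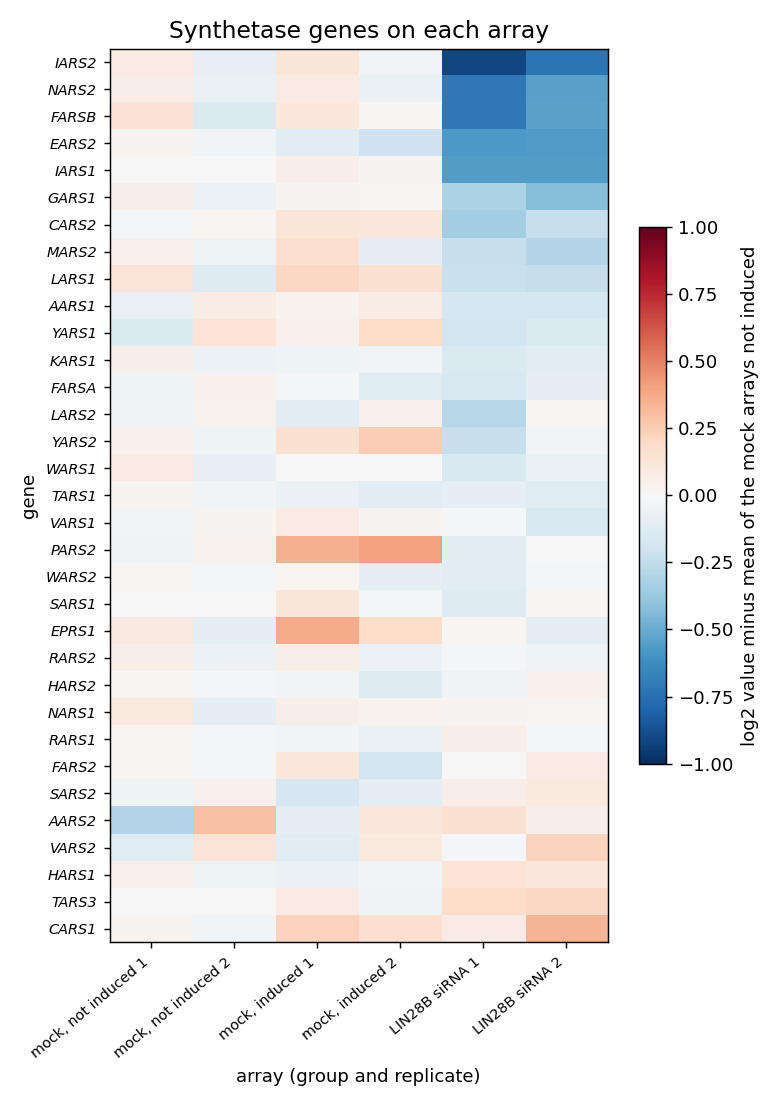
Log2 value of each synthetase gene (vertical axis) on each of the 6 arrays (horizontal axis), minus that gene's mean over the 2 mock arrays without induction; blue is lower and red is higher. Blue is strongest in the knockdown columns of the top genes, and the mock columns of AARS2, whose arrays without induction read 6.83 and 7.41, show the spread between replicates.

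Both enzymes were measured for 14 amino acids that have separate cytosolic and mitochondrial synthetases. Both fell for 1 amino acid, isoleucine. The cytosolic side alone passed for phenylalanine (FARSB), and the mitochondrial side alone for glutamate and asparagine, while neither passed for the other 10. For asparagine, NARS2 had a 95% interval of -0.82 to -0.43 and NARS1 one of -0.12 to 0.16. For glutamate, EARS2 had -0.78 to -0.36 and EPRS1 -0.22 to 0.15, and for phenylalanine FARSB had -0.89 to -0.35 and FARS2 -0.21 to 0.30. These intervals did not overlap within a pair, and the differences between the enzymes of a pair were not tested. The pairs were picked because 1 side passed and the other did not, which makes separate intervals likely. HARS1 and HARS2, which RefSeq places head to head with 84 bases between their starts, had log2 fold changes of 0.12 and 0.01, and neither passed.

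**Figure D4:**
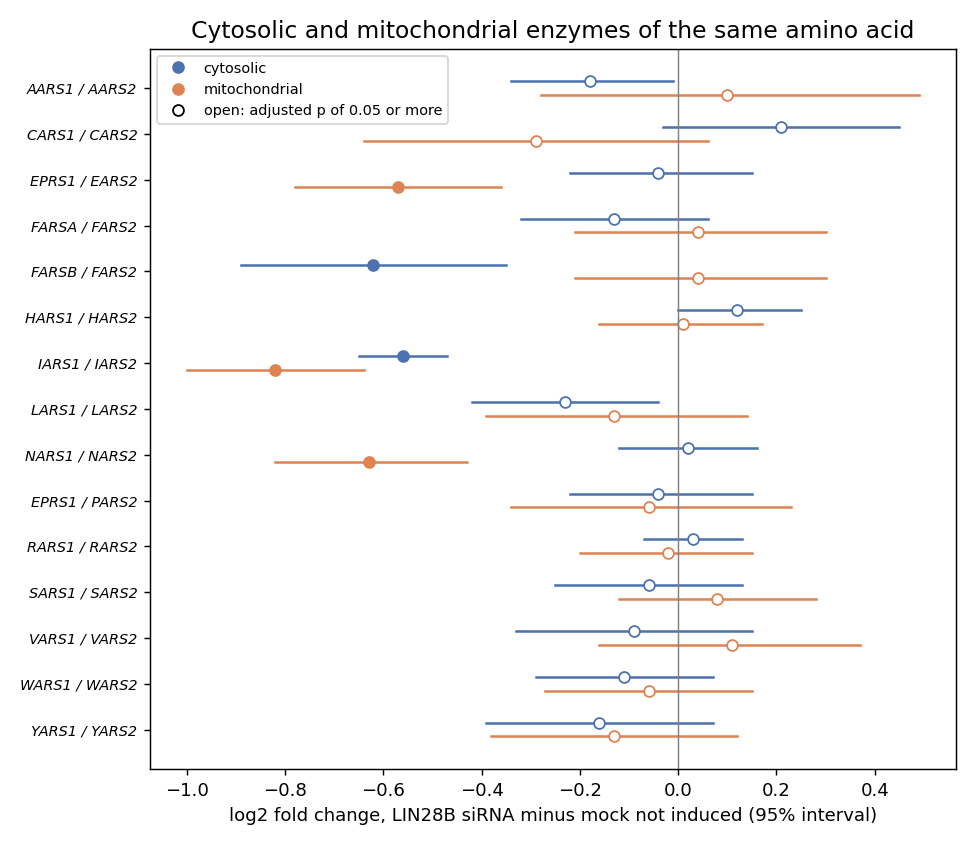
Log2 fold change (horizontal axis, LIN28B siRNA minus mock without induction) of the cytosolic (blue) and mitochondrial (orange) enzyme of the same amino acid, with 95% intervals as lines and filled dots for an adjusted p under 0.05. FARSA and FARSB are both set beside FARS2, and EPRS1 beside EARS2 and PARS2. For isoleucine both dots are filled, at -0.56 and -0.82, and for asparagine only NARS2 is, at -0.63.

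By structural class, 3 of 16 class I genes fell (IARS1, IARS2 and EARS2; median -0.13) and 3 of 16 class II genes (NARS2, FARSB and GARS1; median -0.06); EPRS1 holds a domain of each class. Of the 8 synthetases of the multi-synthetase complex, 5 were measured and 1, IARS1, fell, with a median log2 fold change of -0.13. The other 4 were LARS1, KARS1, EPRS1 and RARS1. Of the 13 cytosolic or shared enzymes outside the complex 2 fell, with a median of -0.11. These shares lay close to the 14.5% of all genes that were called lower.

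Setting the knockdown against all 4 mock arrays in place of the arrays without induction, 8 synthetase genes were lower and 1 was higher, while 34.6% of all genes were called, 17.7% lower and 16.9% higher. The genes added to the 6 were LARS1 at -0.32 (adjusted p = 0.00733), AARS1 at -0.20 (0.0331) and, as the higher one, HARS1 at 0.15 (0.0416). HARS1 read 10.65 and 10.62 after siRNA and between 10.44 and 10.56 on the mock arrays. Its call was made in this setting only.

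Induction of the tagged LIN28B was compared with no induction in mock-transfected cells. The LIN28B probe set itself differed by 0.19 (SE 0.078, adjusted p = 0.999), which did not pass; whether it reads the transgene is not stated, so the arrays are called induced by their labels alone. No synthetase gene was called by limma, as 0.0% of all genes were, and the smallest adjusted p of a synthetase gene was 0.999. At an unadjusted p under 0.05 there were 2 synthetase genes, and 344 of all genes (2.97%). EPRS1 read 10.46 and 10.28 without and 10.74 and 10.55 with induction, a log2 difference of 0.27 (SE 0.083, limma unadjusted p = 0.00851). PARS2 read 6.04 and 6.11 without and 6.43 and 6.48 with induction, a log2 difference of 0.37 (SE 0.13, limma unadjusted p = 0.0154). For both genes the induced arrays lay above the arrays without induction, with no overlap. The same held for CARS1, CARS2, IARS1, LARS1, VARS1 and YARS2, and the reverse for EARS2, HARS2, RARS1, SARS2 and TARS1. How many of all genes did so was not counted, so this separation of 2 arrays from 2 is not read as a response to induction. Over the 33 genes the median log2 difference was 0.02, with a range of -0.16 to 0.37. This comparison and the knockdown comparison share the mock arrays without induction.

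The cytosolic and shared synthetases described as ATF4 targets were looked at with the other genes of the amino acid response. Of 11 such synthetases measured, IARS1 and GARS1 fell, 0 rose and 9 did not pass, with a median log2 fold change of -0.11. The 18.2% called lay near the 14.5% of all genes that were called lower. Of the other 7 cytosolic or shared synthetases, FARSB fell, with a median of -0.09. Of the 7 genes with an amino acid response core in their window, 2 fell (GARS1 and IARS1), and AARS1, CARS1, NARS1, TARS1 and YARS2 did not pass.

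All 31 listed genes of the amino acid response, other than synthetases, were in the table: 7 fell, 0 rose and 24 did not pass, with a median log2 fold change of -0.18. Called were 22.6% of the list and 28.0% of all genes, of which 14.5% were lower. The falls comprised SLC1A5, a glutamine transporter (-0.83, SE 0.14, adjusted p = 0.00197), ALDH1L2, a mitochondrial folate enzyme (-0.82, SE 0.18, 0.00716), SLC7A11, the cystine transporter subunit (-0.79, SE 0.13, 0.00209), and PSPH, the last enzyme of serine synthesis (-0.78, SE 0.19, 0.0123). The other 3 were PCK2, STC2 and ATF4, named here after their values were seen. ATF4 itself read 12.29 and 12.67 without induction, 12.39 and 12.52 with induction, and 12.14 and 12.18 after siRNA, a log2 fold change of -0.32 (SE 0.096, adjusted p = 0.0325). It stood at -0.13 (adjusted p = 0.119) without replicate 2 and at -0.51 (0.00051) without replicate 1 of the mock cells without induction, and at -0.31 (0.154) and -0.34 (0.11) without siRNA replicates 1 and 2. PSPH did not pass without siRNA replicate 1 (-0.67, adjusted p = 0.0975) or without replicate 1 of the mock cells without induction (-0.58, 0.0675). ALDH1L2 read under 5 on both mock arrays without induction, near the bottom of the scale.

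Several well-known genes of the list did not pass. Asparagine synthetase, ASNS, a widely used ATF4 target, read 10.94 and 10.87 without induction and 10.73 and 10.80 after siRNA, a log2 fold change of -0.14 (adjusted p = 0.0782). CHAC1, which degrades glutathione, and NUPR1, a stress-induced chromatin protein, stood at 0.51 (adjusted p = 0.0522) and 0.41 (0.108). Both read low without induction, CHAC1 at 5.07 and 5.41 and NUPR1 at 5.56 and 5.53. With all 4 mock arrays as the reference both stood at 0.27 (adjusted p = 0.194 and 0.197). In the induction comparison 0 of the 31 were called by limma, and 23 were above 0, with a median of 0.15. Of all 11584 genes, 5562 were above 0 there, with a median of -0.0. Against all 4 mock arrays, which include the induced ones, 14 of the 31 were lower and 1 was higher, where 17.7% and 16.9% of all genes were.

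**Figure D5:**
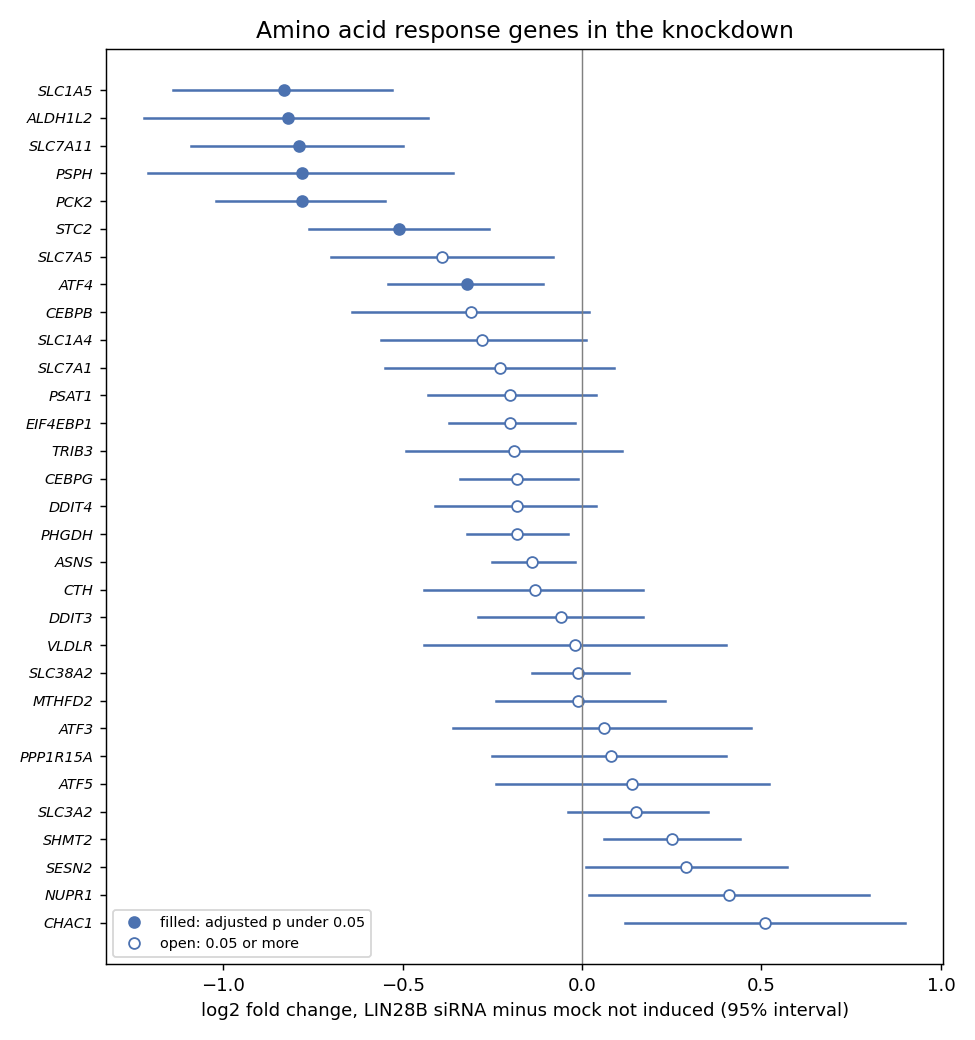
Log2 fold change (horizontal axis, LIN28B siRNA minus mock without induction) of the 31 amino acid response genes, with dots for the estimates, lines for 95% intervals and filled dots for an adjusted p under 0.05. The 7 filled dots lie left of 0, from SLC1A5 at -0.83 to ATF4 at -0.32, and CHAC1 at 0.51 is the highest open dot.

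The proteins that process, modify and export tRNA, the substrate of the synthetases, had 72 of 77 listed genes in the table. Of these 17 fell, 8 rose and 47 did not pass; 34.7% were called, where 28.0% of all genes were (14.5% lower and 13.5% higher), and the median log2 fold change was -0.09. ELP4, a subunit of the Elongator complex that modifies the wobble uridine of tRNA, read 8.13 and 8.10 without induction and 6.69 and 6.64 after siRNA, a log2 fold change of -1.45 (SE 0.094, adjusted p = 2.59e-05). ALKBH8, which acts on the same uridine after Elongator, fell by 0.64 (SE 0.19, adjusted p = 0.0293). The pseudouridine synthase PUS1 fell by 0.62 (SE 0.16, adjusted p = 0.0197). RPP25, a protein of RNase P, which trims the tRNA 5' end, rose by 0.77 (SE 0.16, adjusted p = 0.00545). RPP25 read 5.19 and 5.41 without induction and 6.08 and 6.06 after siRNA, low values at which background correction weighs most. Without replicate 1 of the siRNA arrays the median log2 fold change of the list was -0.06, and that of all genes 0.01. Without replicate 2 of them the medians were -0.06 and 0.0. ALKBH8 did not pass without siRNA replicate 2 (-0.43, adjusted p = 0.189) or without replicate 1 of the mock cells without induction (-0.45, 0.146). PUS1 did not pass without either siRNA array (adjusted p = 0.0808 and 0.112) or without replicate 2 of the mock cells without induction (-0.38, 0.0984).

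Partners of tRNA charging that are not synthetases had 14 of 17 genes in the table, of which 2 fell and 0 rose, where 14.5% of all genes were called lower. DTD1, which removes D-amino acids from mischarged tRNA, read 10.36 on both arrays without induction and 9.08 and 9.30 after siRNA, a log2 fold change of -1.16 (SE 0.075, adjusted p = 2.59e-05). MTFMT, which formylates the mitochondrial methionyl-tRNA made by MARS2, read 8.04 and 7.85 and then 6.74 and 7.19, a log2 fold change of -0.97 (SE 0.14, adjusted p = 0.00117). Both changes were larger than that of any synthetase gene, on the log2 scale. Against all 4 mock arrays 4 partners were called lower and 1 higher, where 17.7% and 16.9% of all genes were.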

How the data were processed

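The log2 values of probe sets were used as deposited by the authors, who made them with affy and GCRMA per the submitters' processing notes; their versions are not given in the sources used. The log base is not stated and was taken as 2, as GCRMA returns. The table holds 13008 probe sets, part of the array; how these were chosen is not stated, and 13007 lay above 5 on at least 2 arrays, so genes low on every array were not analysed here. Probe sets with 1 symbol (11719) stood for 11584 genes, with symbols from the platform annotation updated to RefSeq GRCh38.p14; of several sets per gene the one with the highest mean over 6 arrays was used. A filter asked for values above 4 on at least 2 arrays and removed 0 genes.

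The fit over all genes used limma 3.58.1 (lmFit, eBayes with trend; R 4.3.3) and 1 model of 3 groups (3 residual and 6.73 prior degrees of freedom), two-sided, with Benjamini-Hochberg adjustment over all genes; calls were made at an adjusted p below 0.05. The procedure was tested on simulated data. Alternatives changed scaling, filter, probe set rule, arrays fitted, prior, replicate block, reference arrays and single arrays. Every synthetase gene used is named; array values are given for called genes and up to 8 of largest change, further genes being named after their values were seen. From each related list up to 4 called genes of largest change are named. Members and lists were chosen with earlier results of these data known.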

Additional observations from a re-analysis of the deposited data

How the results depend on the processing

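Of the 33 synthetase genes, 6 were called in the knockdown under every alternative run, 6 under some only and 21 under none; called genes numbered 6 to 9. For all genes, the number called under every alternative was not counted. Against all 4 mock arrays 27.3% of the synthetase genes and 34.6% of all genes were called. The stricter filter removed CARS2. Quantile normalization also called KARS1 (-0.20, adjusted p = 0.0116), LARS1 (-0.25, 0.0355) and TARS1 (-0.18, 0.0183). In that setting 9 of the 33 synthetase genes and 3280 of all 11584 genes were called. Over 494 refits of single knockdown values, 466 kept direction and side of the threshold, 11 passed it newly and 17 changed sign with no call on either side; for the induction 431 of 461 were kept and 30 changed sign, uncalled. Many of the knockdown refits could not move the fold change, so in them its direction was bound to stay. They were both filter settings, averaging probe sets, the 4 compared arrays alone, no intensity trend, the replicate block and leaving out an induced array. The median over the synthetase genes ran from -0.13 to -0.07. Leaving out 1 array gave 1659 to 3143 called genes in the knockdown, in place of 3242, the lowest 2 (1659 and 1964) without siRNA replicates 1 and 2, and 0 to 1 in the induction (AKIRIN2, without replicate 2 of the mock cells without induction). Centring arrays on their medians gave 1835 genes higher and 1524 lower, in place of 1563 and 1679. The causes were not tested.

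The replicate numbers are shared between groups, but deviations of same-numbered arrays correlated at 0.181, -0.057 and 0.016, so they were not shown to pair arrays. With the replicate block, 3422 genes and 7 synthetase genes (LARS1 added, limma adjusted p = 0.0393) were called in the knockdown and 0 in the induction. In that setting 11 of the 31 amino acid response genes were lower and 2 higher, where 1773 and 1649 of all 11584 genes were. With 2 arrays a group, changes smaller than about the intervals given were not detectable, and some larger ones were not called. The 95% intervals, unlike the calls, are not adjusted over all genes. Those of LARS1 (-0.42 to -0.04), KARS1 (-0.24 to -0.03), AARS1 (-0.34 to -0.01) and TARS1 (-0.22 to -0.01) excluded 0 without a call.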

Other observations

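RNA polymerase III and its factors, which transcribe the tRNA genes, had 22 of 23 listed genes in the table. By the limma fit, in the knockdown 3 fell, 1 rose and 18 did not pass, with a median log2 fold change of 0.02; 28.0% of all genes were called. POLR3GL, a polymerase III subunit with a paralog in POLR3G, read 8.0 and 7.84 on the mock arrays without induction, 7.97 and 8.0 with induction, and 6.86 and 6.89 after siRNA, a log2 fold change of -1.05 (SE 0.10, adjusted p = 0.000128). The subunit POLR3E fell by 0.44 (SE 0.098, adjusted p = 0.00854), and did not pass without siRNA replicate 1 (-0.38, adjusted p = 0.0809). Of the TFIIIC factor, GTF3C4 fell by 0.57 (SE 0.11, adjusted p = 0.00522) and GTF3C6 rose by 0.37 (SE 0.051, adjusted p = 0.000842).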
